A study of Arabidopsis thaliana with 6 samples.

Results

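The genes described here code for the core histones H2A, H2B, H3 and H4 and for the linker histone H1 of Arabidopsis thaliana. They were found by the gene description in the deposited table, which had to begin with histone H1, H2A, H2B, H3 or H4, with or without the word probable, and to name no methyl, acetyl, lysine or chaperone function. This took 40 of the 19807 genes of the table. One of them, AT3G07565, is described as an H2A deubiquitinase and not as a histone, and was set aside; its log2 change in the mutant was 0.13 (limma, Benjamini-Hochberg adjusted p = 0.30). The remaining 39 genes comprised 2 for H1, 13 for H2A, 7 for H2B, 9 for H3 and 8 for H4. Another 4 histone genes of the table carry descriptions that the rule does not match and are named beside their type.

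RNA came from whole seedlings of the Col-0 ecotype grown under continuous light on plant nutrient medium to an age of 8 days. The control group was the wild type (replicates 1 to 3), and the other group carried prp8a-14 (replicates 4 to 6), which the genotype label spells prp8-14; both groups share the Col-0 background, and no transgene or further treatment is given. PRP8 is the large protein at the catalytic centre of the spliceosome, and what the allele changes in the gene is not stated in the labels. Libraries were made from poly-A selected RNA, and the 3 libraries of each group are called biological replicates. In whole seedlings, fewer cells of a type and less RNA per cell cannot be told apart.

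Histones wrap DNA into nucleosomes, and linker H1 binds where DNA enters and leaves the particle. Replication-coupled histones such as H3.1 are made mainly in S phase, when new DNA has to be packaged, while replacement variants such as H3.3 and H2A.Z are deposited outside replication as well. In plants H2A.X is a form that is phosphorylated at DNA breaks, H2A.W marks heterochromatin, and CENH3 replaces H3 at centromeres. Plant histone messages end in a poly-A tail, unlike the replication-coupled histone messages of animals, so poly-A selection retains them. Many of these genes have a single exon, and others have introns.

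Proximal promoters are shown first because some histone genes hold one of a pair of short words there; 21 of the 39 promoters held neither. The octamer CGCGGATC (GATCCGCG on the other strand), a known element of plant histone promoters, occurred within the 250 bases before the annotated start of 10 of the 39 genes, against 31 of all 19685 promoters of that length (0.158%). It was found before 1 of 2 H1, 3 of 13 H2A, 4 of 9 H3, 2 of 8 H4 and 0 of 7 H2B genes. The hexamer ACGTCA, searched on both strands, occurred before 6 of 7 H2B genes and 3 of 9 H3 genes, and before 1584 of all promoters (8.05%). One form of the E2F site, TTTCCCGC (GCGGGAAA on the other strand), occurred before 0 of the 39 genes and before 116 of all promoters (0.589%). Other forms of that site were not searched, so the count does not show that these promoters lack E2F sites. The octamer overlaps neither of the other searched words in the sequences printed here. A match is a description of the letters and not of a site in use, and its absence says only that those letters are not in the window. Some windows run into another annotated gene, among them those of AT4G40040 (with the octamer), AT1G07790 (with the hexamer) and AT3G09480 (with neither).

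The following 3 promoters with the octamer, in capitals, belong to an H2A gene (AT1G51060, chr1:18926561-18926810, plus strand), an H3.1 gene (AT1G09200, chr1:2972335-2972584, minus strand) and the H4 gene whose RNA rose (AT5G59690, chr5:24051224-24051473, plus strand). They are written 5′ to 3′ toward the gene, from the RefSeq assembly TAIR10.1. The octamer began 74 and 10 bases before the start in the first, 90 and 19 bases before it in the second, and 71 bases before it in the third.
AT1G51060: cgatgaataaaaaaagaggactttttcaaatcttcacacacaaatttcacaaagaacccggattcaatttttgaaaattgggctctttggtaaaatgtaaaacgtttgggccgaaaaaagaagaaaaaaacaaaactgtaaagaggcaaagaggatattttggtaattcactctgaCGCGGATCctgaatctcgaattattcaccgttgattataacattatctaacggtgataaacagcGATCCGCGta
AT1G09200: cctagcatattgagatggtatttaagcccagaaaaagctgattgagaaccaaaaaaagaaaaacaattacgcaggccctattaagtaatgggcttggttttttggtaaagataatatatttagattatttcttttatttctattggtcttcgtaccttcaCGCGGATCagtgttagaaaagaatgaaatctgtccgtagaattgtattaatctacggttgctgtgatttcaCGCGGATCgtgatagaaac
AT5G59690: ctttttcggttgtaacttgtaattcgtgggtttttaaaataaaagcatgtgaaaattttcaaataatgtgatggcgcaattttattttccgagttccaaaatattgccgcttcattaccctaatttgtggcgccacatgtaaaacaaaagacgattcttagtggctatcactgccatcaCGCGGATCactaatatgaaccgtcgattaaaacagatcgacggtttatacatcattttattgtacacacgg

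The next 3 promoters, from the same assembly, belong to H2B genes whose RNA fell or rose, with the hexamer in capitals. They are AT3G53650 (chr3:19889047-19889296, plus strand) and AT2G37470 (chr2:15736477-15736726, plus strand), which fell, and AT5G22880 (chr5:7652715-7652964, minus strand), which rose. The hexamer began 96, 48 and 195 bases before the start. The other called H2B gene, AT3G09480, fell as well and is not shown. Its window holds no hexamer and runs into the neighbouring gene AT3G09490.
AT3G53650: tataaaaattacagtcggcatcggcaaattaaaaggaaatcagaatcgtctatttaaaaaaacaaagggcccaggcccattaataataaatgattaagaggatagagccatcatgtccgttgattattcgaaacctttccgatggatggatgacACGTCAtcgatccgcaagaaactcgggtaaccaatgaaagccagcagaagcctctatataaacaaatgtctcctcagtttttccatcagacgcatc
AT2G37470: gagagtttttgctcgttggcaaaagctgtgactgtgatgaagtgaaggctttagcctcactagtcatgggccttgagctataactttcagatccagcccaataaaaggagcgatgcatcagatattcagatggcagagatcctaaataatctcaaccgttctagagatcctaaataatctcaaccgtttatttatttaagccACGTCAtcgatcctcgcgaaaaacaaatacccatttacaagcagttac
AT5G22880: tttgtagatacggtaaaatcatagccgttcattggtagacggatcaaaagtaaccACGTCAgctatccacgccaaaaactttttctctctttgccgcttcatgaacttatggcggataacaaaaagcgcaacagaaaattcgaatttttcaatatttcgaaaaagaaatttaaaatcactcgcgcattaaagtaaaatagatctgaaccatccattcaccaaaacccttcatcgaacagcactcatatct
The longest run that the first and the second share is CACGTCATCGATCC, which contains the hexamer. This run, chosen after the sequences were seen, occurred on either strand in 4 of the 39 histone promoters (AT2G37470, AT3G45980, AT3G53650 and AT5G10980) and in 6 of all 19685.

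Over the 39 histone genes, 7 rose and 4 fell in prp8a-14 by limma with an adjusted p under 0.05, and 28 passed in neither direction. These 11 calls are 28.2% of the genes, where 35.2% of all tested genes were called (17.9% rose and 17.3% fell), so the share of histone genes called did not exceed that of the table. Most changes were small. The median log2 change was 0.0026, with 20 genes above 0 and 19 below, and changes ran from -0.84 to 0.39. The median size without regard to sign was 0.106 on the log2 scale, against 0.154 over all genes. A change of at least 1.25-fold was seen in 3 of 39 genes (7.69%), where 23.8% of all genes reached it, and no histone gene was both called and at least 2-fold changed, where 2.33% of all genes were. Wild-type and mutant libraries did not overlap for 16 of 39 genes (41.0%), where 48.1% of all genes were so separated.

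**Figure D1:**
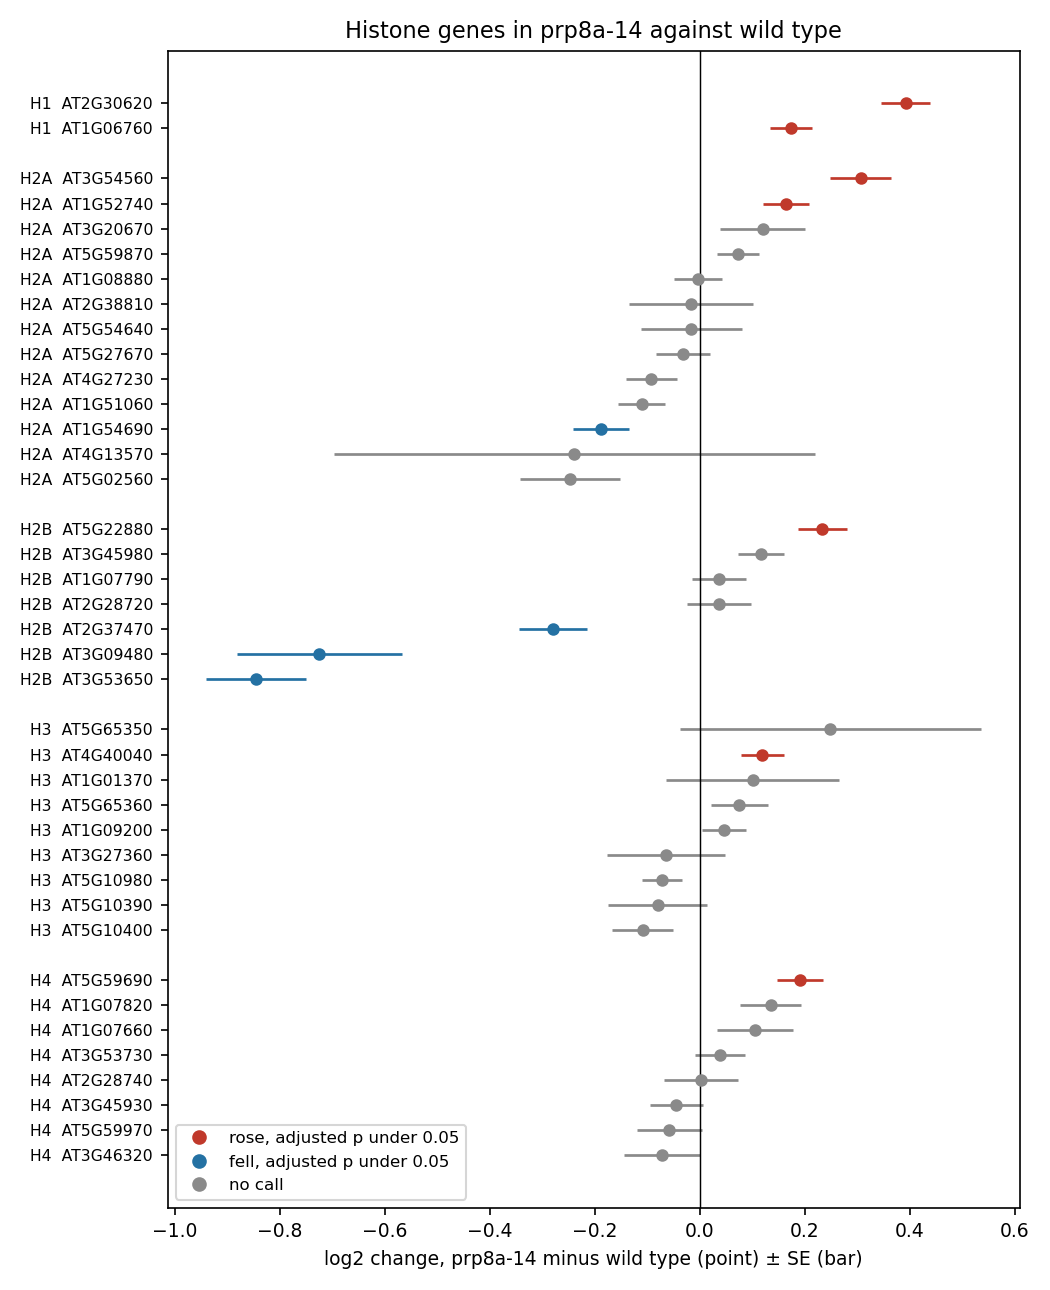
Log2 change of each of the 39 histone genes (prp8a-14 minus wild type, horizontal axis), ordered within each histone type, with the standard error as the bar; red marks genes that rose, blue genes that fell and grey genes with no call. H1 genes lie to the right of 0, H4 genes lie close to 0, and the widest range is that of the H2B genes, from -0.84 to 0.23.

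Levels are given in CPM, that is, each gene's count relative to the size of its library as the authors scaled it. The summed level of the 39 genes was 2183, 2227 and 2251 CPM in the wild-type libraries and 2415, 2305 and 2373 CPM in the mutant ones. The mutant libraries were all higher on that scale. As a share of the plain library totals, however, the same genes took 0.223%, 0.229% and 0.234% of the counts in the wild type and 0.230%, 0.222% and 0.233% in the mutant, and those groups overlapped. With library totals in place of the scaled sizes 3 histone genes rose and 9 fell, and their median log2 change was -0.09, where the median of all genes was -0.09 as well and 26.5% of all calls were rises, against 50.8% on the scaled sizes. The direction of a change near 0 therefore depends on the scaling. With library totals 7 of the 39 genes, all without a call on either scale, turned from above to below 0: HTB1 (0.04 to -0.06), H2B.3 (0.04 to -0.06), HTA6 (0.07 to -0.02), the H3.1 genes AT1G09200 (0.05 to -0.05) and AT5G65360 (0.08 to -0.02), and the H4 genes AT2G28740 (0.003 to -0.09) and AT3G53730 (0.04 to -0.06). Calls that library totals added or removed are given beside the gene.

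The 2 linker histone genes found by the rule both rose, where 17.9% of all genes rose, and among all 39 genes H1.2 had the largest rise. H1.2 (AT2G30620), one of the main linker histones of Arabidopsis chromatin, stood at 164, 173 and 180 CPM in wild-type libraries and at 218, 229 and 232 CPM in mutant ones. All mutant libraries lay above all wild-type ones. H1.2 thus had a log2 change of 0.39 (SE 0.05), or 1.31-fold, with a limma adjusted p of 5.9e-05, and it passed in all 13 alternative settings, with values from 0.30 to 0.43.

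H1.1 (AT1G06760), the other main linker histone, stood at 141, 149 and 152 CPM in the wild type and at 164, 167 and 167 CPM in the mutant. These groups did not overlap either. Its log2 change was smaller, at 0.17 (SE 0.04, limma adjusted p = 0.0061), and with library totals it was 0.08 (adjusted p = 0.165). Of the 150-base words in its annotated transcript, 33.2% also occur in a gene on the opposite strand, AT1G04503, and since the use of strand in the counting is not given, its counts are uncertain.

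The H1.2 message took 53.7%, 53.7% and 54.3% of the counts of both genes in the wild type and 57.0%, 57.8% and 58.1% in the mutant. This share, which does not depend on library scaling, averaged 53.9% ± 0.37 and 57.6% ± 0.56 (SD, n = 3 each). The groups did not overlap, and an exact two-sided permutation test of 3 against 3 libraries cannot give a p below 0.10. Both genes together made up 14.4% ± 0.40 of the counts of the 39 genes in the wild type and 16.6% ± 0.72 in the mutant (SD, n = 3 each). The 4 histone genes that the rule does not match are not in that total.

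The third H1 gene, HIS1-3 (AT2G18050), is known as a stress-inducible linker histone and is described in the table only by its symbol, so the rule did not match it. It had 2.36, 2.48 and 1.31 CPM in the wild type and 1.23, 1.14 and 1.03 CPM in the mutant. The groups were separated, but wild-type replicate 3 lay close to the mutant libraries. Its log2 change was -0.80 (SE 0.26, limma adjusted p = 0.031) and the ratio of pooled counts 0.556 (95% exact interval 0.462 to 0.668, counting error only). The call was lost in 6 of 12 alternatives, among them the fits that left out wild-type replicate 1, wild-type replicate 2, mutant replicate 5 and mutant replicate 6. Per length, HIS1-3 stood at 2.14 CPM per kilobase of RefSeq transcript in the wild type, where H1.1 stood at 127 and H1.2 at 103.

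**Figure D2:**
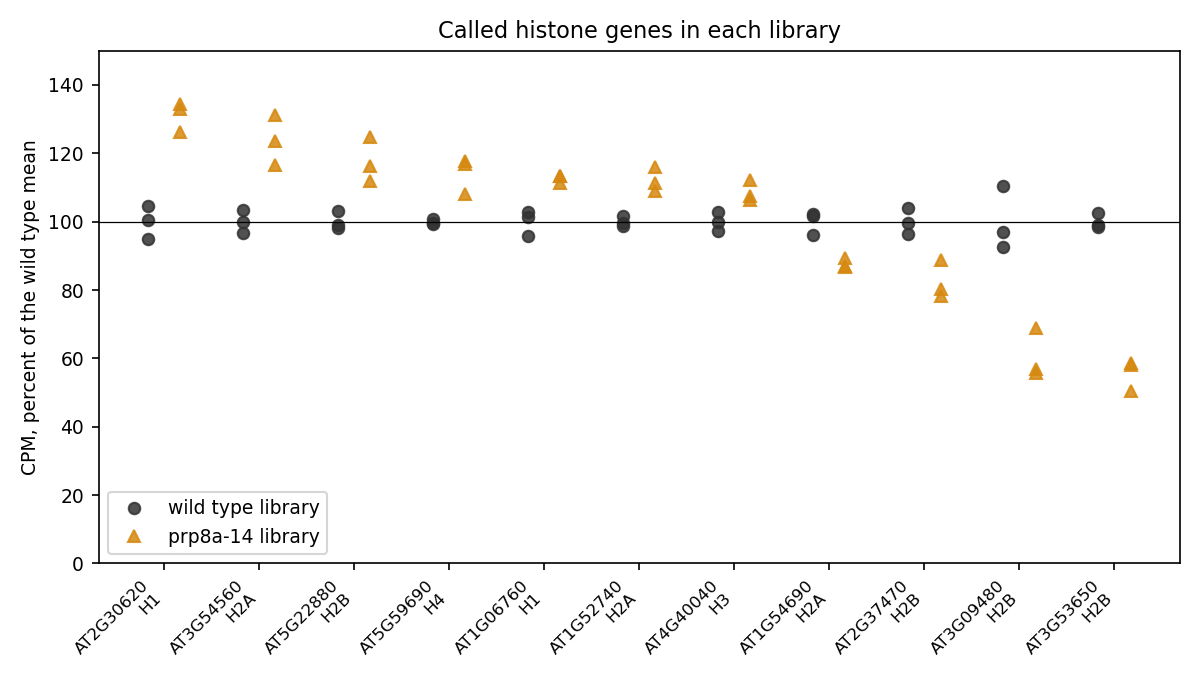
Level of the 11 called histone genes in each of the 6 libraries, as a percentage of that gene's wild-type mean CPM (vertical axis from 0, the line marks 100); circles are wild-type and triangles prp8a-14 libraries. In each of these genes the groups are separated, and only AT3G09480 and AT3G53650 have all mutant libraries far below the wild type.

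Of the 13 H2A genes 2 rose and 1 fell (15.4% and 7.69%, beside 17.9% and 17.3% of all genes), with a median log2 change of -0.02. Both that rose code for H2A.Z, the replacement variant found around transcription start sites and over inducible genes. HTA11 (AT3G54560, symbol H2AV in the table) had 25.7, 26.6 and 27.6 CPM in the wild type and 34.9, 32.9 and 31.0 CPM in the mutant. Its groups did not overlap, and the log2 change of 0.31 (SE 0.06, limma adjusted p = 0.0017) passed in all 13 alternatives.

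HTA9 (AT1G52740), which also codes for H2A.Z, had 54.9, 55.3 and 56.6 CPM in the wild type and 64.6, 60.5 and 62.0 CPM in the mutant. The mutant libraries were all higher. HTA9 rose by 0.16 on the log2 scale (SE 0.04, limma adjusted p = 0.012), but its change was 0.07 with library totals (adjusted p = 0.226). The H2A.Z gene HTA8 (AT2G38810) had overlapping groups at 6.70 ± 0.93 and 6.59 ± 0.45 CPM (SD, n = 3 each) and a log2 change of -0.02. HTA4 (AT4G13570), assigned to the same class, was measured from 24 to 82 counts in each library, and its log2 change of -0.24 had a 95% interval from -1.24 to 0.76.

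H2A.Z messages together took 18.4%, 18.1% and 19.0% of the H2A counts in the wild type and 21.2%, 21.2% and 20.7% in the mutant (18.5% ± 0.44 and 21.0% ± 0.30, SD, n = 3 each). All mutant libraries lay above all wild-type ones. The share of the replication-coupled H2A genes was 34.3% ± 0.28 in the wild type and 32.7% ± 0.80 in the mutant, and that of H2A.X 17.9% ± 0.25 and 17.1% ± 0.24 (SD, n = 3 each); neither pair of groups overlapped. These are parts of one sum, so a higher share of one class lowers the others. H2A.W stood at 29.3% ± 0.39 and 29.2% ± 0.70 (SD, n = 3 each), with overlapping groups.

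**Figure D3:**
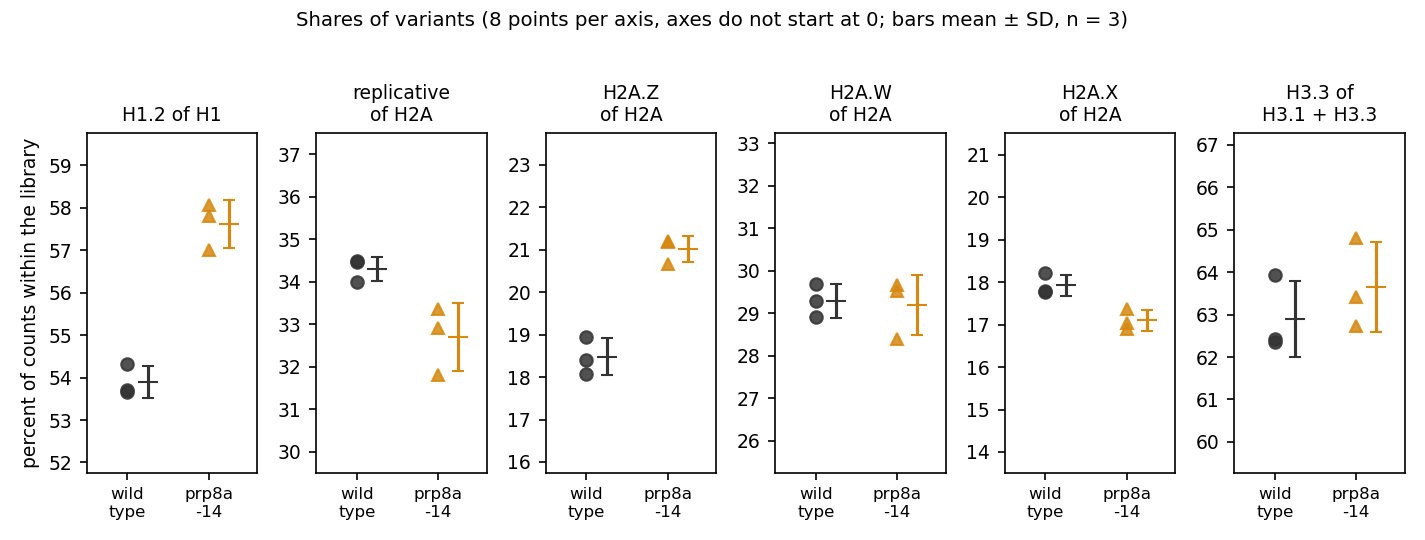
Share of counts within each library (vertical axes, percent, each spanning 8 points and not starting at 0) for H1.2 among the H1 counts, 4 classes among the H2A counts and H3.3 among the H3.1 and H3.3 counts; points are libraries and bars the mean ± SD (n = 3 per group). H1.2 and H2A.Z are higher in all mutant libraries, and replication-coupled H2A and H2A.X are lower in all of them. H2A.W and H3.3 overlap between the groups. Only genes found by the rule are counted, so H3.3 is without AT4G40030 and H1 without HIS1-3.

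The H2A gene that fell was HTA3 (AT1G54690), which codes for H2A.X. It had 26.4, 28.0 and 27.9 CPM in the wild type and 23.8, 23.9 and 24.5 CPM in the mutant, with no overlap. This was a log2 change of -0.19 (SE 0.05, limma adjusted p = 0.017); without wild-type replicate 2 or 3 the call was lost (-0.17 in each, adjusted p = 0.0645 and 0.0625). Its transcript shares 16.7% of its 150-base words with genes on the opposite strand, so its counts are uncertain. The other H2A.X gene, HTA5 (AT1G08880), had 61.0, 59.1 and 58.8 CPM in the wild type and 62.3, 59.5 and 56.9 CPM in the mutant. Its groups overlapped, with a log2 change of -0.003 and a 95% interval from -0.10 to 0.10.

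The replication-coupled H2A genes gave 0 calls in either direction by limma (4 genes; 0 rose and 1 fell at an unadjusted p under 0.05, and 0 and 0 with voom weights), while with library totals 2 fell. HTA10 (AT1G51060), the most abundant of all 13 H2A genes per length at 101 CPM per kilobase in the wild type, had 82.9, 86.4 and 83.8 CPM in the wild type and 79.7, 74.3 and 80.7 CPM in the mutant. All mutant libraries were lower. The log2 change was -0.11 (SE 0.04, limma adjusted p = 0.078), which passed with quantile normalization (-0.15, adjusted p = 0.024) and with library totals (-0.21, adjusted p = 0.0045). The log2 changes of HTA13 (AT3G20670), HTA2 (AT4G27230) and RAT5 (AT5G54640) were 0.12, -0.09 and -0.02, with overlapping groups in each; HTA2 was the other fall with library totals (-0.19, adjusted p = 0.0086).

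HTA12 (AT5G02560), one of 3 genes for heterochromatic H2A.W, had the lowest log2 change of the H2A genes. It had 13.1, 12.6 and 11.1 CPM in the wild type and 10.8, 11.0 and 9.18 CPM in the mutant. The groups were separated by a narrow gap, and the log2 change of -0.25 (SE 0.10, limma adjusted p = 0.066) passed only with library totals (-0.34, adjusted p = 0.011) and without wild-type replicate 3 (-0.32, adjusted p = 0.039). It shares 29.0% of its transcript's 150-base words with AT5G02570 on the opposite strand, so its counts are uncertain as well. HTA6 (AT5G59870) and HTA7 (AT5G27670), the more abundant H2A.W genes, had log2 changes of 0.07 and -0.03 and no call.

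Of the 7 H2B genes found by the rule, 1 rose and 3 fell (14.3% and 42.9%, beside 17.9% and 17.3% of all genes). H2B.8 (AT3G53650) had the largest fall of any histone gene found by the rule. It had 9.79, 9.74 and 10.1 CPM in the wild type and 5.81, 5.00 and 5.73 CPM in the mutant. The groups lay far apart relative to their spread, and the log2 change was -0.84 (SE 0.10, limma adjusted p = 4.2e-05), or 0.557 of the wild-type level. It passed in all 13 alternatives, with values from -0.94 to -0.74.

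AT3G09480, described as a histone H2B, was the least abundant gene of this type per length, at 3.16, 3.304 and 3.77 CPM in the wild type and 1.94, 2.35 and 1.90 CPM in the mutant. No library of one group reached the other. Its log2 change was -0.72 (SE 0.16, limma adjusted p = 0.0039), and the ratio of pooled counts was 0.598 (95% exact interval 0.520 to 0.686, counting error only). H2B.4 (AT2G37470) had 25.8, 23.9 and 24.7 CPM in the wild type and 22.0, 19.4 and 19.9 CPM in the mutant, again without overlap, and its log2 change was -0.28 (SE 0.06, limma adjusted p = 0.0057). Both falls passed in every alternative in which the gene was tested, 12 and 13 of them.

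HTB2 (AT5G22880) rose in the same libraries. It had 119, 113 and 114 CPM in the wild type and 144, 129 and 134 CPM in the mutant, all mutant libraries being higher. HTB2 had a log2 change of 0.23 (SE 0.05, limma adjusted p = 0.0025), which passed in all 13 alternatives, at 0.14 with library totals. Its share of the counts of these 7 genes was 36.8% ± 0.88 in the wild type and 40.7% ± 1.32 in the mutant (SD, n = 3 each), with no overlap. With the genes that fell included, these 7 genes summed to 313 ± 0.72 CPM in the wild type and 333 ± 10.5 CPM in the mutant (SD, n = 3 each). That is only part of the H2B message, since HTB4 and HTB11, which the rule does not match, are left out. HTB4 averaged 144 CPM in the wild type and 153 in the mutant, and HTB11 138 and 135.

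The other H2B genes gave no call. HTB9 (AT3G45980, described as H2B.6) had 86.5, 90.0 and 87.4 CPM in the wild type and 92.7, 93.5 and 100.1 CPM in the mutant. Its groups were separated, with a log2 change of 0.12 (SE 0.04, limma adjusted p = 0.057), and 17.3% of its transcript's words are shared with a gene on the opposite strand. HTB1 (AT1G07790) and H2B.3 (AT2G28720) each had a log2 change of 0.04. The H2B genes HTB4 (AT5G59910) and HTB11 (AT3G46030), which the rule does not match, had log2 changes of 0.08 and -0.04 with no call. With library totals HTB4 stood at -0.01, and HTB11 was called at -0.13 (limma adjusted p = 0.026). HTB11 was the most abundant H2B gene per length in the wild type, at 184 CPM per kilobase, followed by HTB2 at 136, HTB9 at 121 and HTB4 at 112.

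The H3 genes gave a single call (11.1%, beside 35.2% of all genes). Of 9, 1 rose and 0 fell by limma (1 and 0 at an unadjusted p under 0.05, and 1 and 0 with voom weights), while with library totals 0 rose and 2 fell. None of the 5 H3.1 genes, which supply H3 during replication, was called in either direction (0 and 0 also at an unadjusted p under 0.05 and with voom weights). Their log2 changes ran from -0.11 to 0.08, and their 95% intervals reached no further than -0.31 and 0.19. All 5 code for one identical protein of 136 residues from coding sequences that are 80.3% to 89.5% identical, and no 150-base word was shared among them. AT3G27360, AT5G10390 and AT5G65360 had log2 changes of -0.06, -0.08 and 0.08, and 26.2% of the words of AT3G27360 lie in an overlapping gene on the same strand, AT3G27380, so its counts are uncertain.

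AT1G09200, the most abundant H3.1 gene per length, had 98.9, 98.0 and 98.1 CPM in the wild type and 105.7, 97.9 and 101.1 CPM in the mutant. The groups overlapped, and the log2 change was 0.05. AT5G10400 lay at the other end, with 47.5, 44.6 and 44.1 CPM in the wild type and 45.7, 40.5 and 40.3 CPM in the mutant. Its groups overlapped through mutant replicate 4. The log2 change of -0.11 (SE 0.06, limma adjusted p = 0.175) passed with library totals (-0.20, adjusted p = 0.0105) and without that library (-0.17, adjusted p = 0.034). The summed H3.1 level was 251 ± 5.41 CPM in the wild type and 254 ± 14.5 CPM in the mutant (SD, n = 3 each).

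Of the replacement H3.3 genes, AT4G40040 was the most abundant of all 39 histone genes per length, at 232 CPM per kilobase in the wild type. It had 291, 307 and 299 CPM in the wild type and 335, 321 and 318 CPM in the mutant, so every mutant library was higher. Its log2 change of 0.12 (SE 0.04, limma adjusted p = 0.043) passed in only 5 of 13 alternatives. It was lost with quantile normalization (0.05, adjusted p = 0.305), with library totals (0.02, adjusted p = 0.656), without the intensity trend and without any one of the wild-type replicates or mutant replicate 4 or 5 (0.10 to 0.14).

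The H3.3 gene AT5G10980 had 124, 128 and 126 CPM in the wild type and 118, 122 and 120 CPM in the mutant. Every mutant library was lower, by little. The log2 change was -0.07 (SE 0.04, limma adjusted p = 0.165), and it passed with quantile normalization (-0.12, adjusted p = 0.029) and with library totals (-0.17, adjusted p = 0.0054). AT4G40030, an H3.3 gene by the RefSeq annotation that the rule does not match, had 131 ± 2.24 CPM in the wild type and 141 ± 6.56 CPM in the mutant (SD, n = 3 each), with a log2 change of 0.11 (limma adjusted p = 0.060). Without AT4G40030, H3.3 took 62.9% ± 0.90 of the H3.1 and H3.3 counts in the wild type and 63.6% ± 1.06 in the mutant. With AT4G40030 the share was 68.9% ± 0.80 and 69.8% ± 0.81 (SD, n = 3 each). The groups overlapped in both cases.

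HTR12 (AT1G01370), which codes for the centromeric CENH3, had 4.14, 3.99 and 4.28 CPM in the wild type and 5.72, 3.49 and 4.37 CPM in the mutant. The wild-type libraries lay close together and the mutant ones on both sides of them. The log2 change was 0.10 (SE 0.17, limma adjusted p = 0.669, 95% interval -0.26 to 0.46), and -0.08 without mutant replicate 4. HTR11 (AT5G65350, described as H3-like 5) had 34 to 82 counts in each library, or 1.23, 0.649 and 1.33 CPM in the wild type and 1.14, 1.19 and 1.32 CPM in the mutant. Its groups overlapped, and its log2 change of 0.25 (SE 0.29, limma adjusted p = 0.536) was -0.07 without wild-type replicate 2. The male gamete gene HTR10 was not analysed here.

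All 8 H4 genes code for one protein of 103 residues, from coding sequences that are 78.8% to 98.1% identical. Of these genes 1 rose (12.5%, beside 17.9% of all genes). AT5G59690 had 126, 125 and 124 CPM in the wild type and 146, 135 and 147 CPM in the mutant, with no overlap. The log2 change was 0.19 (SE 0.04, limma adjusted p = 0.0050), and 0.10 with library totals (adjusted p = 0.103). It was also the most abundant H4 gene per length, at 168 CPM per kilobase in the wild type and 192 in the mutant. Its share of H4 counts, which needs no scaling, was 29.7% ± 0.88 in the wild type and 32.1% ± 0.18 in the mutant (SD, n = 3 each), also without overlap.

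None of the other 7 H4 genes was called. AT3G46320, with the lowest change, had 29.5, 28.6 and 29.8 CPM in the wild type and 31.2, 25.1 and 27.6 CPM in the mutant. The mutant libraries lay on both sides of the wild type, and the log2 change of -0.07 (SE 0.07, limma adjusted p = 0.476) was 0.003 without mutant replicate 5. Only 2.22% of its 150-base words are shared with another H4 gene, AT3G45930. AT1G07820 had a log2 change of 0.14 (SE 0.06, limma adjusted p = 0.090). AT1G07660, AT2G28740, AT3G45930, AT3G53730 and AT5G59970 had log2 changes from -0.06 to 0.11 and overlapping groups. Over the H4 genes 1 rose and 0 fell (2 and 0 at an unadjusted p under 0.05, 1 and 0 with voom weights, 0 and 0 with library totals), and their 95% intervals stayed between -0.23 and 0.29.

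Since PRP8 acts in splicing, the genes were also set out by exon number in the RefSeq annotation. Of the 20 histone genes with 1 exon, 2 rose and 3 fell, with a median log2 change of 0.02. Of the 19 with 2 or more exons, 5 rose and 1 fell, with a median of -0.003. Over all genes of the table, 32.4% of those with 1 exon were called (16.0% rose and 16.4% fell). Of those with more, 35.4% were called (17.8% rose and 17.6% fell). All 3 H2B genes that fell, and HTB2 and AT5G59690 that rose, have 1 exon and so no intron in the annotated transcript. Both H1 genes and both H2A.Z genes that rose have introns, as do AT4G40040, which rose, and HTA3, which fell. The difference between these classes was not tested. Of the genes that rose 3 of 7 had the promoter octamer and 1 of 7 the hexamer, of those that fell 0 of 4 and 2 of 4, and of those without a call 7 of 28 and 6 of 28.

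Genes of DNA replication were the nearest comparison for replication-coupled histones. Of 21 S-phase genes 1 rose and 3 fell (4.76% and 14.3%, beside 17.9% and 17.3% of all genes), with a median log2 change of -0.01. RNR2A, a subunit of ribonucleotide reductase, rose by 0.28 on the log2 scale (limma adjusted p = 0.021); the call was lost with library totals, without the trend, without wild-type replicate 3 and without mutant replicate 4. TK1A, a thymidine kinase, had a log2 change of -0.32 (limma adjusted p = 0.0061) and fell in all 13 alternatives as well. The replication licensing factor CDT1A had one of -0.17 (limma adjusted p = 0.0498), which passed in only 3 of them. The summed S-phase level was 585 ± 12.1 CPM in the wild type and 589 ± 30.4 CPM in the mutant (SD, n = 3 each), and the groups overlapped.

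Of 22 M-phase genes 8 rose and 0 fell (10 and 0 at an unadjusted p under 0.05, 9 and 0 with voom weights), with a median log2 change of 0.17. These rises are 36.4% of the list, beside 17.9% of all genes. With library totals 3 rose and the median was 0.07, without wild-type replicate 2 the list had 4 rises, and without mutant replicate 6 it had 5. The mitotic cyclins CYCB2;2 and CYCB2;3 had log2 changes of 0.44 (limma adjusted p = 0.0035) and 0.29 (limma adjusted p = 0.013). CYCB2;2 passed in all 13 alternatives, and CYCB2;3 was lost with library totals and without wild-type replicate 2. The list's summed level was 351 to 364 CPM in the wild type and 402 to 416 CPM in the mutant, without overlap.

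Histone chaperones and exchange factors carry histones to DNA or swap variants, and of 25 such genes 5 rose and 1 fell (beside 17.9% and 17.3% of all genes), with a median log2 change of 0.08. MSI1, a subunit of the chromatin assembly factor CAF-1 and of other complexes, rose by 0.21 on the log2 scale (limma adjusted p = 0.019), and ARP6, of the SWR1 complex that deposits H2A.Z, by 0.20 (limma adjusted p = 0.020). MSI1 passed in 8 and ARP6 in 9 of 13 alternatives, and both were lost with library totals and without wild-type replicate 2. The others that rose were SPT6L, SSRP1 and SPT16, the last 2 forming the FACT complex. NAP1;3, a nucleosome assembly protein, had 86.1, 89.5 and 85.6 CPM in the wild type and 73.7, 73.1 and 75.8 CPM in the mutant, and its log2 change of -0.23 (limma adjusted p = 0.0011) passed in all 13 alternatives. With library totals 0 of the 25 rose and 6 fell, without the trend 1 rose, without wild-type replicate 2 the rises were 1, and without wild-type replicate 3 or mutant replicate 4 they were 2.

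**Figure D4:**
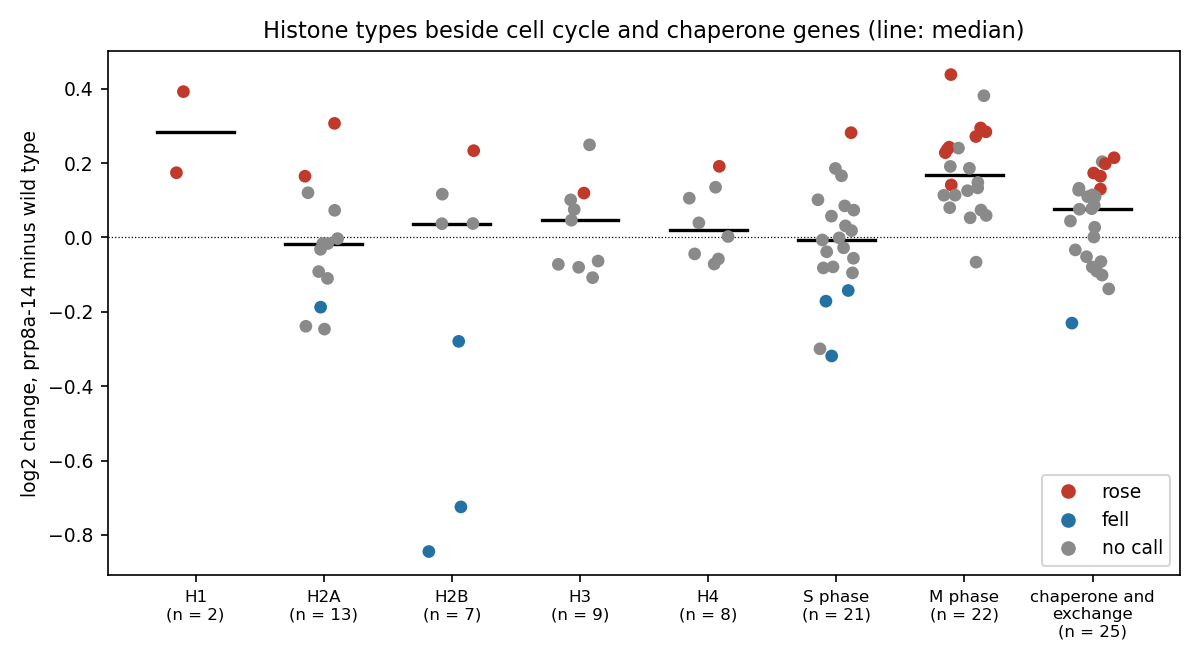
Log2 change (prp8a-14 minus wild type, vertical axis) of every gene of the 5 histone types and of the S-phase, M-phase and chaperone and exchange lists, with the median as a line; red points rose, blue points fell and grey points had no call. The medians of H2A, H2B, H3, H4 and S-phase genes lie within 0.05 of 0, that of the M-phase genes at 0.17 and that of the 2 H1 genes at 0.28.

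The libraries held between 49126331 and 63069817 counts in the genes listed. A count of 0 would allow up to 3 counts, which is 0.0484 to 0.0635 CPM, and every histone gene lay above that in every library. PRP8A itself had 389 to 433 CPM in the wild type and 466 to 537 CPM in the mutant (log2 change 0.28, limma adjusted p = 0.0031), which does not check the genotype of an allele whose kind is not given. Some marker genes of other tissues differed between the same groups, where 17.9% of all genes rose and 17.3% fell. Of the shoot markers 3 of 3 (RBCS1A, LHCB3 and CA1) rose, with a summed level of 10298 to 11681 CPM in the wild type and 14934 to 15815 CPM in the mutant. RBCS1A, which makes up most of that sum, lost its call with quantile normalization, at a log2 change of -0.03, while LHCB3 and CA1 passed in all 13 alternatives. Of 5 root markers 1 rose and 3 fell (282 to 291 and 259 to 267 CPM summed), and 4 of 4 seed markers rose (3.08 to 5.71 and 9.35 to 18.2 CPM). Among the seed markers, CRC and SESA3 rested on few counts. CRC had 12, 26 and 6 counts in the wild type and 201, 29 and 76 in the mutant. SESA3 had 16, 6 and 0 counts in the wild type and 64, 23 and 40 in the mutant, and was called in 9 of 12 alternatives. Of 8 meristem markers 5 were measured, 0 rose and 1, KNAT1, fell (29.1 to 33.2 and 25.4 to 28.1 CPM; limma, 0 and 1 also at an unadjusted p under 0.05 and with voom weights), and WUS, CLV3 and WOX5 were not analysed here. The part of tissue composition in the histone values was not tested.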

How the data were processed

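The authors deposited one table of log2 values of CPM (each gene's count relative to library size) per gene and library, per the file headers and the values; with 0.5 counts added they gave whole counts within a tolerance of 0.1 for 100% of values. Among tools, edgeR, limma, bcl2fastq, Salmon 0.8.2, Subread with featureCounts 1.4.6-p5 and STAR 2.5.1a are named in the submitters' processing notes. The sources used here give no build, annotation or use of strand. CPM are recovered counts over the authors' scaled sizes, which were 1.02 to 1.04 times the totals in the wild type and 0.951 to 0.982 times in the mutant. Another 3 columns of per-sample values match no sample and were not used.

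All 19807 genes (272 repeat lines dropped) were fitted with limma 3.58.1 (R 4.3.3) with an intensity trend on the deposited log2 values, 3 libraries per group. Two-sided p-values were adjusted by Benjamini-Hochberg, with a threshold of 0.05; the fit was tested on simulated data. Alternatives tried were quantile normalization, library totals, a mean of at least 5 CPM, no trend, voom weights on the recovered counts, pseudocounts of 0.1 and 1 CPM, and leaving out each library. Intervals on log2 changes are limma's at 95%.

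RefSeq TAIR10.1 gave exon numbers, transcript lengths, names and promoters for 19686 genes by locus (19685 with a promoter) and for 40 of 40 genes found by the rule. Named genes were every called histone gene; in each type the highest and lowest change and the most abundant gene; HTR12, the H3.3 and H1 genes; and up to 2 rises and 2 falls per further list. Other names were chosen after their values were seen. The members and lists were chosen with earlier results of these data known. Shares are fractions of counts within a library, and their exact binomial 95% intervals reached at most 0.773 points on either side for H1.2, for counting error only. Figures used matplotlib 3.10.9.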

Additional observations from a re-analysis of the deposited data

How the results depend on the processing

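Over 18 named histone genes and 13 alternatives, 231 values were computed: 207 kept direction and side of the threshold, 13 lost the call, 8 gained one and 3 changed sign. The 3 were HTR12 without mutant replicate 4, AT3G46320 without mutant replicate 5 and AT5G65350 without wild-type replicate 2; with each library left out in turn their log2 changes ran from -0.081 to 0.27, from -0.15 to 0.0028 and from -0.072 to 0.44. H1.2, HTA11, HTB2, H2B.8, AT3G09480 and H2B.4 were called in every alternative in which they were tested.

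With library totals 3 histone genes rose and 9 fell, 0 S-phase genes rose, 3 M-phase genes rose, and of the chaperone and exchange genes 0 rose and 6 fell. The median log2 changes were then -0.093 for all histone genes, 0.19 for H1, -0.11 for H2A, -0.058 for H2B, -0.049 for H3 and -0.074 for H4. Quantile normalization gave medians of 0.22 for H1 and 0.010 for H2B and 3 falls among chaperone and exchange genes. Without the trend 1 S-phase gene fell and 1 chaperone or exchange gene rose. A mean of at least 5 CPM gave a median of -0.063 for H3 and 2 falls among chaperone and exchange genes, and voom weights also gave 2. Leaving out each library in turn, 6 to 7 histone genes rose and 3 to 5 fell, 0 to 1 S-phase genes rose and 1 to 2 fell, 4 to 8 M-phase genes rose, and 1 to 4 chaperone and exchange genes rose. The medians then ran from -0.036 to 0.045 for all histone genes, 0.25 to 0.31 for H1, -0.070 to 0.029 for H2A, -0.015 to 0.045 for H2B, -0.060 to 0.073 for H3 and -0.0025 to 0.059 for H4. The S-phase rise was lost without wild-type replicate 3 or mutant replicate 4. The lowest M-phase count came without wild-type replicate 2, and the lowest chaperone and exchange count without the same library. The cause was not tested. No paired analysis was possible because the replicate numbers of the groups (1 to 3 and 4 to 6) are not shared.

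Depth limits HTA4, HTR11, HIS1-3 and AT3G09480, which had 24 to 213 counts in each library. The replicates are called biological, but nothing says how the seedlings were pooled. 6 histone genes were not analysed here.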
